A study of Mus musculus with 2 samples.

Results

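In mouse embryonic stem cells, 10 imprinted genes were followed, Meg3, Rian, Mirg, H19, Cdkn1c, Grb10, Peg10, Impact, Snrpn and Mest, among the 32285 genes counted. They were taken by symbol, each matched 1 gene identifier, and their levels, shares of positive cells and spread between cells were read in 2 single-cell libraries. Both libraries came from the E14 line, of 129/Ola background, grown in serum with leukaemia inhibitory factor and transfected by lipofection. The library named control received a control siRNA, and the library named sonKD received an siRNA against Son, which encodes a scaffold protein of nuclear speckles. Cells of both were collected 24 h after transfection, frozen, thawed, sorted as living by 7-AAD exclusion and barcoded with 10x Genomics Single Cell 3' v3 chemistry.

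Imprinted genes are transcribed mainly from the copy inherited from 1 parent, because the parental copies carry different DNA methylation at imprinting control regions. In embryos many of them tune growth, with maternally expressed genes often restraining it and paternally expressed genes often promoting it. Cultured embryonic stem cells are known to lose or change imprints, so the level of an imprinted transcript can differ between lines and between cells of a line. The counts used here do not tell the parental copies apart.

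A barcode counted as a cell when it held 2500 UMIs or more, 1000 genes or more and no more than 10% mitochondrial UMIs, where a UMI (unique molecular identifier) marks 1 captured molecule. The control library held 4978 such cells with a median of 7737.5 UMIs, and the sonKD library held 2731 with a median of 11612. A further 625 control barcodes (11.2%) and 1056 sonKD barcodes (27.9%) passed the UMI and gene minimums but not the mitochondrial limit. Only 2 barcode sequences were shared by the kept cells of both libraries. Levels are in CPM, the UMIs of a gene scaled to a common library total. Son itself was lower in the knockdown library, with 169 CPM in control against 106 CPM in sonKD, a log2 ratio of -0.67 (-0.73 to -0.61). All 8 pluripotency markers were above 10 CPM in both libraries, summing to 8164 and 8922 CPM. The markers of mesoderm, trophectoderm and neuroectoderm summed to 4.71 to 18.1 CPM. Of the 8 listed fibroblast genes, 6 were under 1 CPM in each library, and 3 of these (Col3a1, Lum and Postn) were at 0 in both. The primitive endoderm list summed to 44.1 and 35.3 CPM, most of it Lama1. The fibroblast list came to 193 and 157 CPM, most of it Fn1. Lama1 and Fn1 are also known from stem cells, and whether other cell types were present was not tested. With 1 library per group there is no replicate, so no test was made. The 95% intervals given throughout cover counting error only, and the siRNA and the library cannot be told apart.

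Meg3, Rian and Mirg lie side by side on chromosome 12 in the imprinted Dlk1-Dio3 domain, all on the plus strand and all transcribed from the maternal copy as long noncoding RNAs. In GENCODE M21 on GRCm38, Meg3 spans chr12:109541001-109571726, Rian spans chr12:109603940-109661716 and Mirg spans chr12:109729764-109749460. The gaps between annotated genes were 32213 bases from Meg3 to Rian and 68047 bases from Rian to Mirg, and the trio covered 208460 bases. Meg3 is a lincRNA, Rian hosts small nucleolar RNAs (13 such genes lie inside it) and Mirg hosts microRNAs (14 genes inside it). Because the results below turn on these neighbours being found in the same cells, the windows at their RefSeq starts are shown (GRCm38.p6, plus strand, 250 bases before to 50 after the start). RefSeq gave 2 starts for Meg3, of which the more upstream is shown, and 1 each for Rian and Mirg. The Mirg start in RefSeq lies inside the gene as GENCODE draws it. Capitals mark matches, on either strand, to 4 short motifs. They are TGCCGC (the core that Zfp57 binds when it is methylated), TATAAA (called the TATA box below), CCAAT (called the CCAAT box) and TGACGTCA (the cyclic AMP response element).
Meg3 chr12:109540746-109541045: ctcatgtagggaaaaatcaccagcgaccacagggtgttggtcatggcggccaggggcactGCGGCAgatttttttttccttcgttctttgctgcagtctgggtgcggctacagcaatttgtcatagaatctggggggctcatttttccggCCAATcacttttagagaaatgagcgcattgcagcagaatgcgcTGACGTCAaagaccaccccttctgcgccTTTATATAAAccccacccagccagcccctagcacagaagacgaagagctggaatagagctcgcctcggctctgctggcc
Rian chr12:109603695-109603994: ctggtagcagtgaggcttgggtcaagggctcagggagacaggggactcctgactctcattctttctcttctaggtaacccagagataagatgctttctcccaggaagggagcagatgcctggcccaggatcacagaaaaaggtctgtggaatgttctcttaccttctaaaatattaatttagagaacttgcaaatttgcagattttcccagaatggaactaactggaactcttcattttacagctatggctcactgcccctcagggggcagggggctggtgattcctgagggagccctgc
Mirg chr12:109734731-109735030: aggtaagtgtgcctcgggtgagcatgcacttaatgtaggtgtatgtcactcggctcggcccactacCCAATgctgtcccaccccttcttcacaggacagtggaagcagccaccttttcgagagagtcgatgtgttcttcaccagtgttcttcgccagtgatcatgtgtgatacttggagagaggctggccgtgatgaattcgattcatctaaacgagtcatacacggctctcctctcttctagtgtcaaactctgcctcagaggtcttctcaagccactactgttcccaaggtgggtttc
The Meg3 window held all 4 motifs: the Zfp57 core once on the opposite strand, the CCAAT box once, the cyclic AMP element once, and the TATA box as 2 overlapping matches, 1 on each strand. The Rian window held none of them and no CpG, and the Mirg window held the CCAAT box alone, with 10 CpGs against 13 at Meg3. Of the 32851 start windows of this length in the RefSeq table, 11.6% held the Zfp57 core and 13.6% the TATA box. The CCAAT box was in 37.4% of them and the cyclic AMP element in 1.79%, and the median window held 7 CpGs. These matches describe the letters of the windows, and no binding or methylation was measured.

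Meg3 was the most abundant of the 10 genes in both libraries. It came to 198 CPM (194 to 202) over control cells and to 192 CPM (188 to 197) over sonKD cells. The log2 ratio of sonKD over control was -0.04 (-0.09 to 0.01), and the intervals of the 2 levels overlapped. Its neighbour Rian had 56.2 CPM (53.9 to 58.6) in the control and 46.8 CPM (44.5 to 49.3) in the knockdown library. Its log2 ratio was -0.26 (-0.36 to -0.17), so Rian was lower in sonKD by more than counting error while Meg3 was not. Mirg was the lowest member with any count, at 11.5 CPM (10.5 to 12.6) and 11.1 CPM (9.99 to 12.3), and its ratio of -0.05 (-0.25 to 0.15) included 0. Since a UMI marks 1 captured molecule, the levels of different genes are set side by side without a correction for length. Whether intronic reads were counted is not given, and an effect of gene length on these levels was not tested.

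H19, the maternally expressed noncoding RNA at chr7:142575529-142578143 (minus strand) that lies beside Igf2, had 0 UMIs in every barcode of both libraries, kept or not. Over the kept cells a count of 0 allows up to 0.0733 CPM in control and 0.0937 CPM in sonKD (3 counts per library). For cells with a UMI it allows a share of up to 0.0603% and 0.110%. The sources used here do not show whether the authors' counting could assign reads to H19, and if it could not, the 0 and these limits say nothing of its expression. Snurf, in the Snrpn locus, was also at 0 UMIs in every barcode. Igf2, the paternally expressed neighbour of H19, had 0.147 and 0.375 CPM. H19 is therefore given no ratio and no measure of spread, and 9 of the 10 genes carry the results that follow.

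Cdkn1c and Grb10 are known as maternally expressed restraints on growth, although Grb10 has tissue-specific imprinting and is expressed from the paternal copy in neurons. Cdkn1c encodes the cyclin-dependent kinase inhibitor p57 and lies at chr7:143458339-143461050 (minus strand), and Grb10 encodes an adaptor that dampens insulin and growth factor receptor signalling and spans chr11:11930508-12038683 (minus strand). The level of Cdkn1c was 49.9 CPM (47.8 to 52.1) in the control and 40.4 CPM (38.2 to 42.6) in the knockdown library, a log2 ratio of -0.31 (-0.41 to -0.20). Its annotated exons share 625 bases with the antisense gene Gm44732, and the sources used here do not state whether strand was used in counting. That of Grb10 was 150 CPM (146 to 154) and 130 CPM (126 to 134), a log2 ratio of -0.21 (-0.26 to -0.15). The intervals of the 2 libraries did not overlap for either gene, and both were lower in sonKD. The median log2 ratio over all 8063 genes averaging 10 CPM or more was also below 0, at -0.12.

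The 4 paternally expressed members were close to equal between the libraries. Peg10, a gene derived from a retrotransposon and needed for the placenta (chr6:4747306-4760517, plus strand), had 27.2 CPM in the control and 25.7 CPM in the knockdown library, with a log2 ratio of -0.08 (-0.21 to 0.05). Impact, a regulator of the translation kinase Gcn2 (chromosome 18, plus strand), was the one member with a higher level in sonKD, at 47.8 and 50.6 CPM, and its ratio of 0.08 (-0.02 to 0.18) included 0. Snrpn, which encodes the small nuclear ribonucleoprotein SmN of the Prader-Willi domain (chr7:59982495-60140219, minus strand), stood at 25.5 and 24.7 CPM, with a ratio of -0.05 (-0.18 to 0.09). Mest, which encodes a protein of the alpha/beta hydrolase fold (chr6:30723547-30748465, plus strand), stood at 29.6 and 29.2 CPM, with a ratio of -0.02 (-0.14 to 0.11). Of its 2159 exon bases, Snrpn shares 589 with the protein-coding gene Gm38393 and 216 with Snurf, both on the same strand. Snurf was at 0 UMIs in every barcode, so how shared reads were assigned bears on the Snrpn value. Mest shares 912 exon bases with Copg2 on the opposite strand.

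**Figure D1:**
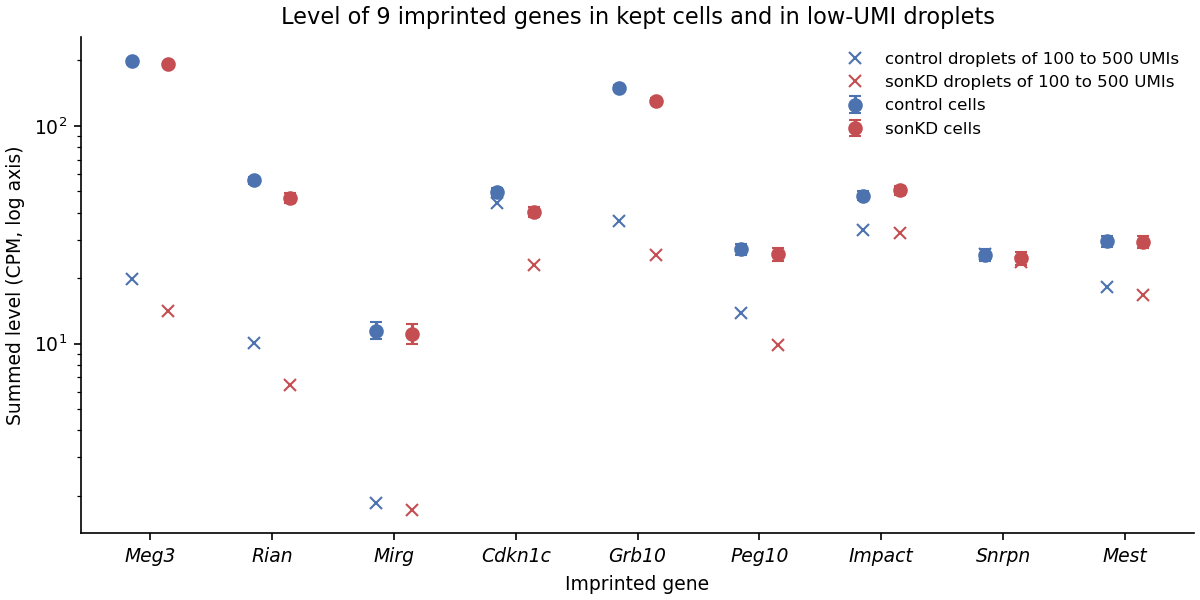
Summed level of 9 imprinted genes in CPM on a log axis, with filled points for kept cells of each library (bars, 95% Poisson intervals) and crosses for droplets of 100 to 500 UMIs. Meg3 and Grb10 stand highest, at 198 and 150 CPM in control cells and 192 and 130 CPM in sonKD cells, and for Snrpn the cross and the point nearly coincide in each library.

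By level, the control library ran Meg3, Grb10, Rian, Cdkn1c, Impact, Mest, Peg10, Snrpn and Mirg from high to low, and the sonKD library ran Meg3, Grb10, Impact, Rian, Cdkn1c, Mest, Peg10, Snrpn and Mirg. Neighbours whose intervals overlapped were Cdkn1c with Impact in control, Impact with Rian in sonKD, and Mest with Peg10 and Peg10 with Snrpn in both. A gene was called higher or lower in sonKD when its log2 ratio was 0.32 or more from 0 with the whole interval on that side. Of the 9 members with a ratio, 0 were called higher and 0 lower. Among all 8063 genes averaging 10 CPM or more, 3.5% were called higher and 10.2% lower. Without the limit of 0.32, the whole interval lay below 0 for 3 of the 9 members, Rian, Cdkn1c and Grb10. It did so for 9 of 11 genes of the other maternal list below and 6 of 8 of the other paternal list. The 25th percentile of the log2 ratio over all 8063 genes was -0.22, with Grb10 above it and Rian and Cdkn1c below it. The median log2 ratio of the members was -0.05 and that of all 8063 genes was -0.12, with the 5th and 95th percentiles at -0.40 and 0.25. A median-ratio scaling sets that median to 0, a shift of 0.116 on the log2 scale, and changes the split of all genes from 282 higher and 820 lower to 521 and 308. Over 7 other scalings and cell selections, Cdkn1c (-0.33 to -0.19), Rian (-0.28 to -0.15) and Grb10 (-0.23 to -0.09) stayed below 0 and Impact (0.05 to 0.20) above it. The ratios of Meg3, Mirg, Peg10, Snrpn and Mest changed sign with the scaling. Cdkn1c alone was called lower in any of them, and this in 2 selections, with cells of at least 5000 UMIs and with the deepest barcodes removed.

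Free RNA was read from droplets of 100 to 500 UMIs, far below the minimum for a cell. In them, Meg3 had 19.8 CPM (control) and 14.1 CPM (sonKD), which was 10.0% and 7.30% of its level in cells. Rian came to 17.8% and 13.7%, Mirg to 16.1% and 15.4%, and Grb10 to 24.5% and 19.7% of their cell levels. Over all genes that averaged 10 CPM or more the median was 52.8% in control and 49.0% in sonKD, so the chromosome 12 RNAs and Grb10 were scarce in free RNA. Snrpn was at the other end, at 101% and 95.8%, and Cdkn1c came to 88.4% and 57.1%. These percentages compare the composition of free RNA with that of cells, and not the number of free molecules in a cell.

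Positive cells, meaning cells with at least 1 UMI of the gene, were first counted at full depth. Meg3 was found in 63.8% of control and 70.0% of sonKD cells, Grb10 in 53.3% and 57.0%, Rian in 30.8% and 34.6%, and Impact in 30.4% and 40.7%. Cdkn1c was found in 25.0% and 24.2%, Mest in 20.3% and 26.7%, Snrpn in 18.1% and 23.6%, Peg10 in 17.7% and 19.8%, and Mirg in 8.44% and 11.5%. The sonKD cells were deeper, so most of these shares were higher there although no level was higher beyond its interval.

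Thinning every cell at random to 2500 UMIs made the depths equal. The Meg3 share was then 32.9% (31.6 to 34.3) in the control and 31.7% (30.0 to 33.5) in the knockdown library, and that of Grb10 26.7% and 24.8%. Rian was found in 12.5% (11.6 to 13.5) and 10.8% (9.70 to 12.1), and Cdkn1c in 10.1% (9.26 to 10.95) and 7.87% (6.89 to 8.95). For these last 2 genes the interval of the difference lay below 0, from -3.16 to -0.15 percentage points for Rian and from -3.52 to -0.86 for Cdkn1c. The share of all genes below 0 by this rule was not computed at 2500 UMIs. In cells thinned to 10000 UMIs it was 42.1% of 8063 genes. Impact was found in 10.6% of cells in both libraries, Mest in 7.33% and 7.104%, Peg10 in 5.89% and 5.90%, Snrpn in 5.64% and 5.57% and Mirg in 2.83% and 2.93%. At least 10% of thinned cells were positive for 5 members in control (Meg3, Grb10, Rian, Impact and Cdkn1c) and for 4 in sonKD (the same without Cdkn1c). Of all genes with any UMI, 17.2% in control and 16.5% in sonKD reached that share. A thinned cell was positive for a median of 1 of the 9 members in both libraries.

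Heterogeneity between cells was measured on the thinned cells as the variance over the mean, which is 1 when every cell draws from the same level (a Poisson count). In control it was 1.40 for Meg3, 1.39 for Cdkn1c and 1.30 for Grb10, against a median of 1.03 and a 95th percentile of 1.18 over the 6100 genes that averaged 0.05 UMI or more. In sonKD it was 1.48 for Meg3, 1.91 for Cdkn1c and 1.29 for Grb10, against 1.03 and 1.19 over 5875 genes. These 3 genes thus stood above the 95th percentile of this measure in both libraries. Ranked from the top, 1.44% of genes in control and 1.36% in sonKD exceeded Meg3, 1.52% and 0.477% exceeded Cdkn1c, and 2.26% and 2.81% exceeded Grb10. Rian was at 1.14 and 1.07, Peg10 at 1.08 and 1.14, Mirg at 1.05 and 1.06, Snrpn at 1.04 and 1.09, Impact at 1.04 and 1.03, and Mest at 1.01 in both. Variance over mean grows with the mean, so the excess squared coefficient of variation, which removes the Poisson part and scales by the mean, was read beside it. Cdkn1c (3.09 in control and 8.55 in sonKD) and Peg10 (1.22 and 2.11) were above its 95th percentiles of 0.936 and 1.04 in both libraries. Meg3 (0.858 and 1.03) and Grb10 (0.830 and 0.890) were below them, with 6.02% and 5.04% of genes above Meg3 and 6.36% and 7.25% above Grb10. Rian (1.01 and 0.616) was above it in control and Snrpn (0.616 and 1.504) in sonKD. The Snrpn value in sonKD did not last in deeper cells, at 0.289 with 5000 UMIs and 0.284 with 10000. With excess variance called at a variance over mean of 1.5, 0 members were called in control (background 1.07% of genes) and 1, Cdkn1c, in sonKD (background 1.31%). The sonKD value of Cdkn1c was 1.69 without the 1 cell that held the most of its UMIs, and 1.48, below the threshold, in cells with at most 5% mitochondrial UMIs.

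**Figure D2:**
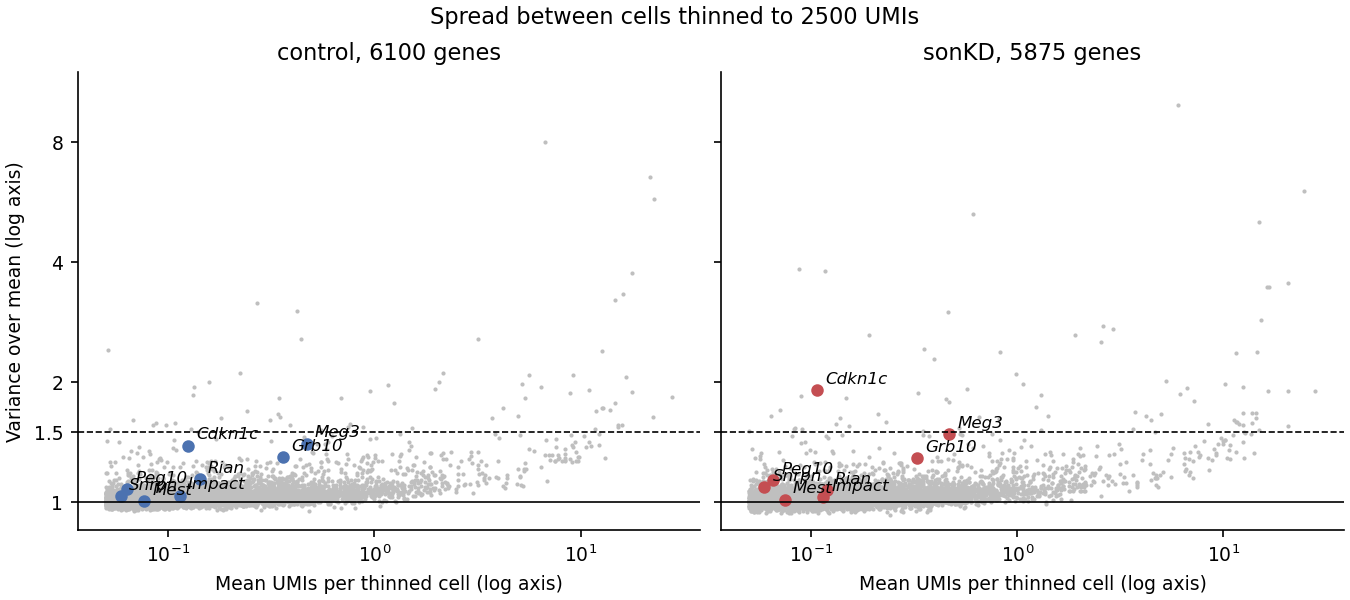
Variance over mean against mean UMI count per cell thinned to 2500 UMIs, both on log axes, for 6100 genes of control and 5875 of sonKD (grey) with the members as coloured points; the solid line is the Poisson value 1 and the dashed line the threshold 1.5. Meg3, Cdkn1c and Grb10 stand above most genes of their mean, while Mest and Impact lie in the grey band.

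The same spread was read in deeper cells, where low counts limit it less. Thinned to 5000 UMIs (4464 control and 2559 sonKD cells), Meg3 had a variance over mean of 1.65 and 1.96, Cdkn1c of 1.74 and 1.94 and Grb10 of 1.60 and 1.56, and these were the 3 members past 1.5 in each library. The background was 1.64% in control and 2.13% in sonKD. Thinned to 10000 UMIs (989 and 1884 cells), Meg3 reached 1.94 and 2.94, Grb10 2.35 and 2.10, and Cdkn1c 1.67 and 2.88. Rian in control (1.54) and Peg10 in sonKD (1.82) were the fourth member past 1.5, with a background of 3% in control and 3.19% in sonKD. Without its top cell Rian in control was at 1.49, below 1.5, Meg3 in sonKD was at 2.44 and Cdkn1c in sonKD at 2.60. That 1 sonKD cell held 59 Meg3 UMIs at full depth, against a highest count of 25 in control. Variance over mean grows with the mean, and the excess squared coefficient of variation, scaled by the mean, did not rise with it here. At 10000 UMIs it was 0.437 and 0.991 for Meg3, 1.35 and 4.41 for Cdkn1c and 0.771 and 0.823 for Grb10. Each of these was lower than in cells thinned to 2500 UMIs. For Peg10 and Mest it was higher at 10000 than at 2500 UMIs in both libraries.

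Zeros were more frequent than a Poisson count of the same mean gives for some members and not for others. The share of all genes with such an excess was not computed, so it is not known whether these members differ from other genes in this. In cells thinned to 10000 UMIs, Meg3 was missing from 21.03% of control cells (18.5 to 23.7) where the Poisson value was 11.7%. In sonKD it was missing from 29.5% (27.4 to 31.6) against 14.1%. Grb10 was missing from 33.8% of control and 41.8% of sonKD cells against Poisson values of 17.3% and 26.2%. Cdkn1c was missing from 68.3% and 76.0% against 60.9% and 65.3%, and Rian from 57.8% and 68.6% against 51.0% and 62.7%. Peg10 exceeded its Poisson value clear of the interval in sonKD (82.6% against 78.0%), and in control its interval of 74.4 to 79.7% included the Poisson 74.6%. For Snrpn the zero shares were 78.0% and 78.3% against 78.0% and 77.4%, for Impact 63.3% and 61.8% against 61.9% and 60.1%, and for Mest 74.7% and 76.3% against 73.5% and 74.8%. Mirg was missing from 89.1% and 90.3% against 88.2% and 89.9%. The intervals of these last 4 genes included the Poisson value in both libraries.

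**Figure D3:**
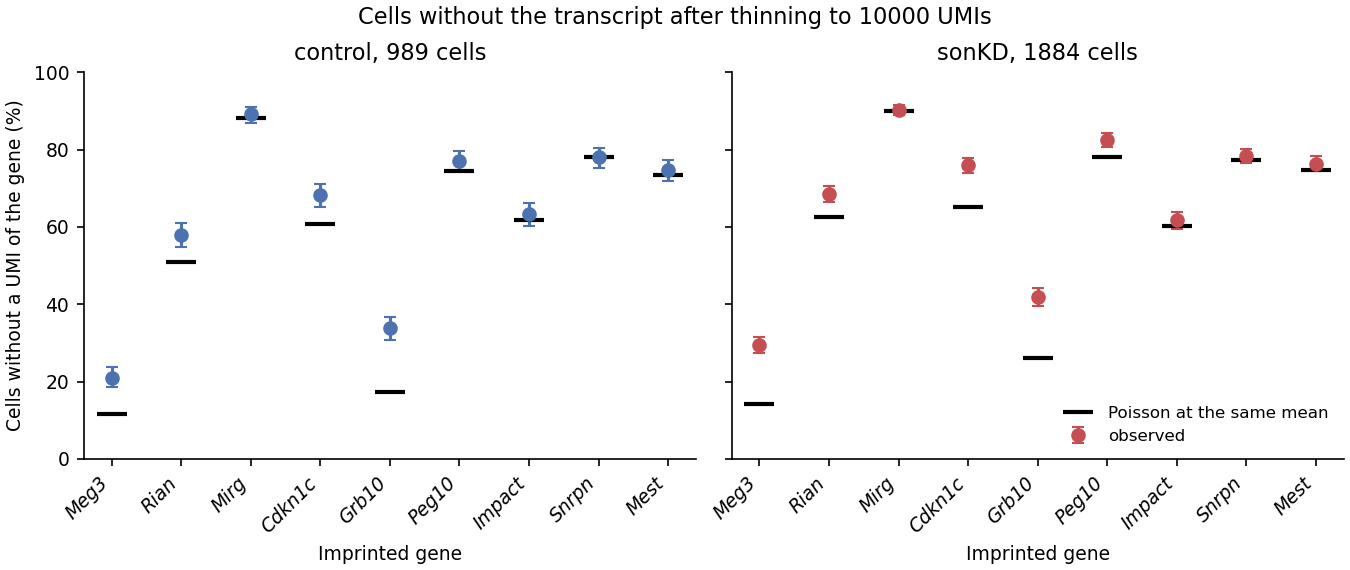
Percentage of cells without a UMI of each gene after thinning to 10000 UMIs, in 989 control and 1884 sonKD cells (points, with 95% binomial intervals), and the Poisson value at the same mean (black marks). The points lie above the marks for Meg3, Rian, Cdkn1c and Grb10 in both libraries and on them for Mirg, Impact, Snrpn and Mest.

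The other tail was also long for some members, again without a background of other genes. Of the same 10000-UMI cells, 118 control cells (11.9%) and 202 sonKD cells (10.7%) held 5 or more Meg3 UMIs, where the Poisson values were 6.68% and 4.89%. Grb10 reached 5 or more UMIs in 10.8% of control and 5.10% of sonKD cells against 3.31% and 1.20%. Cdkn1c did so in 6 control cells (0.607%) and 29 sonKD cells (1.54%) against 0.0167% and 0.00828%. Impact did so in 1 control and 2 sonKD cells, against 0.0142% and 0.0186%, and Snrpn and Mest in none.

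Excess zeros can be a separate off group or the low end of a graded range, and 1 simple form of each was fitted to the full-depth counts. The on-off form was a zero-inflated Poisson, with a share of cells off and the rest at 1 level. The graded form was a negative binomial, with 1 continuous spread of levels and as many parameters. The graded form had the higher log-likelihood for Meg3 by 353 in control and 499 in sonKD, for Grb10 by 230 and 145, for Cdkn1c by 133 and 236 and for Rian by 54.4 and 24.0. Peg10 (23.6 and 60.4), Impact (5.79 and 8.81), Mest (2.54 and 4.09) and Mirg (1.04 and 0.670) leaned the same way by less. For Snrpn the on-off form was higher by a log-likelihood of less than 1 in each library, at differences of -0.28 and -0.69. The dispersion of the graded form, the squared coefficient of variation of the level between cells, ran from 0.294 (Impact) and 0.265 (Snrpn) in control to 2.02 for Cdkn1c there. In sonKD it was 3.22 for Cdkn1c, 2.44 for Peg10 and 0.761 for Meg3. The graded form was thus the closer of these 2 forms for 8 of the 9 genes, though for Mirg by no more than 1.04. Fits are given for these 9 genes only, so this count has no background of other genes and marks no trait of imprinted genes. An off group with graded levels in the other cells was not fitted. The on-off form allows only 1 level in cells that are on, so a long upper tail also favours the graded form. The fits therefore do not decide whether an off group exists.

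Deep cells also differed between the libraries. At 10000 UMIs the Meg3 share was 79.0% in control and 70.5% in sonKD, and it differed by -8.43 percentage points (-11.7 to -5.06). The intervals also lay below 0 for Rian (-10.7), Grb10 (-8.05), Cdkn1c (-7.76) and Peg10 (-5.44), which makes 5 of 9 members, and 0 lay above it. Of all 8063 genes that averaged 10 CPM or more, 42.1% lay below 0 by the same rule and 6.21% above it, with a median difference of -2.39 points, so a lower share in these sonKD cells was common to many genes. Mirg, Impact, Snrpn and Mest had intervals that included 0. These cells are the deepest 989 of 4978 in control and 1884 of 2731 in sonKD, so they are a different slice of each library. Inside the control library Meg3 stood at 139 CPM in cells of 2500 to 5000 UMIs, 193 CPM at 5000 to 10000, 219 CPM at 10000 to 20000 and 198 CPM in the 49 cells of 20000 or more. In sonKD the same bins gave 264, 171, 194 and 209 CPM, the last in 114 cells. Whether depth accounts for the difference in deep cells was not tested.

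A cell with 1 of the chromosome 12 RNAs held another of them more often than a cell without it. In cells thinned to 2500 UMIs, 17.9% of Meg3-positive control cells held a Rian UMI against 9.88% of Meg3-negative cells, a difference of 7.99 percentage points (5.88 to 10.2). In sonKD the shares were 18.1% and 7.46%, a difference of 10.7 (7.83 to 13.6), and another random thinning gave 6.03. At 10000 UMIs the shares were 46.6% and 25.5% in control and 37.2% and 17.5% in sonKD, with differences of 21.1 (13.7 to 27.9) and 19.8 (15.5 to 23.8). Mirg was found in 12.04% of Meg3-positive and 6.73% of Meg3-negative control cells at that depth, and in 11.4% and 5.59% in sonKD. It was found in 14.6% of Rian-positive and 8.22% of Rian-negative control cells, and in 14.02% and 7.74% in sonKD. All 3 pairs had differences whose intervals lay above 0 in both libraries at 5000 and at 10000 UMIs. At 2500 UMIs this held for the 2 pairs with Meg3, and the Rian and Mirg interval included 0 in control.

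The share of Rian-positive cells followed the Meg3 count. In control cells of 10000 UMIs it was 25.5% with 0 Meg3 UMIs, 35.9% with 1, 45.9% with 2, 49.8% with 3 or 4 and 65.3% with 5 or more. In sonKD the same steps gave 17.5%, 28.5%, 30.8%, 41.0% and 60.9%. Rian was thus still found in 25.5% and 17.5% of cells in which no Meg3 was seen. Mirg went from 6.73% to 15.3% in control and from 5.59% to 21.3% in sonKD between the first and the last step.

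**Figure D4:**
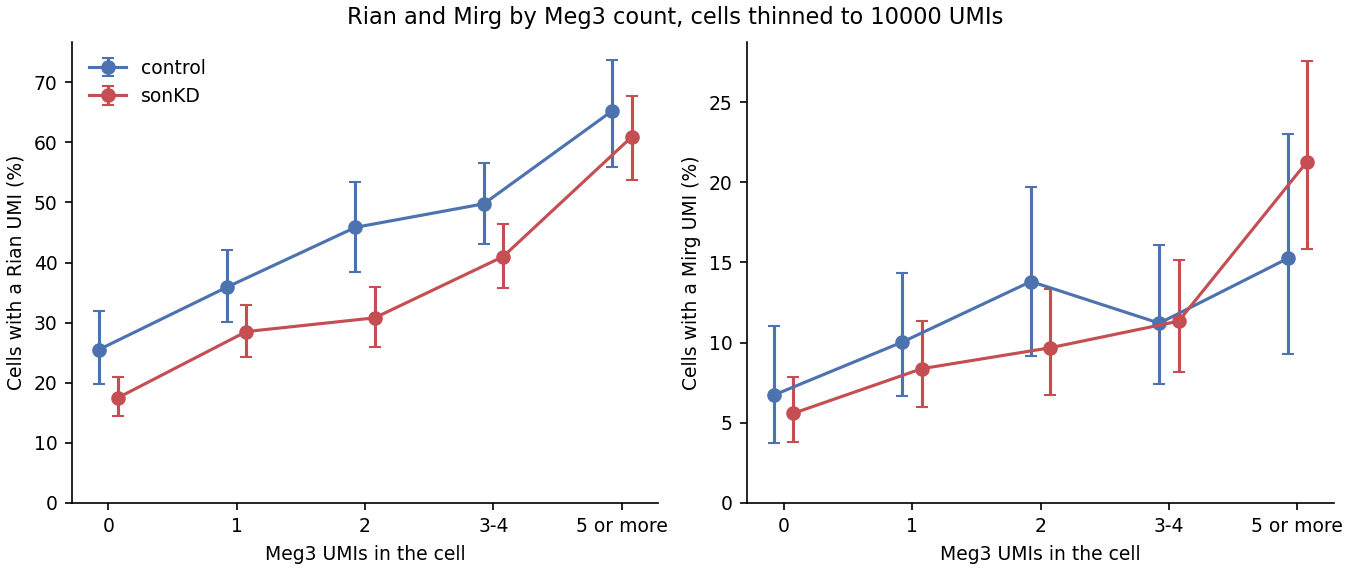
Percentage of cells with a Rian UMI (left) and a Mirg UMI (right) by the number of Meg3 UMIs in the cell, thinned to 10000 UMIs, for both libraries with 95% binomial intervals. The Rian share goes from 25.5% to 65.3% in control and from 17.5% to 60.9% in sonKD.

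Pearson's r of the 10000-UMI counts over cells was 0.29 in control and 0.34 in sonKD for Meg3 with Rian, and 0.30 and 0.33 without the cell richest in Meg3. For the other pairs of the trio it was 0.06 and 0.10 in control and 0.14 and 0.11 in sonKD. The 33 pairs that involve a gene outside chromosome 12 ranged from -0.06 to 0.07 in control and from -0.07 to 0.07 in sonKD, with medians of 0.00 in both. These values describe cells of 1 library each, which share depth and handling. Of those 33 pairs, 1 had an interval above 0 in both libraries at each depth, but it was a different pair each time: Meg3 with Grb10 at 2500, Cdkn1c with Mest at 5000 and Impact with Mest at 10000 UMIs. None lay below 0 in both. Cdkn1c, Snrpn and H19 share chromosome 7, and Peg10 and Mest share chromosome 6, and neither Cdkn1c with Snrpn nor Peg10 with Mest was among the pairs above 0 in both libraries.

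**Figure D5:**
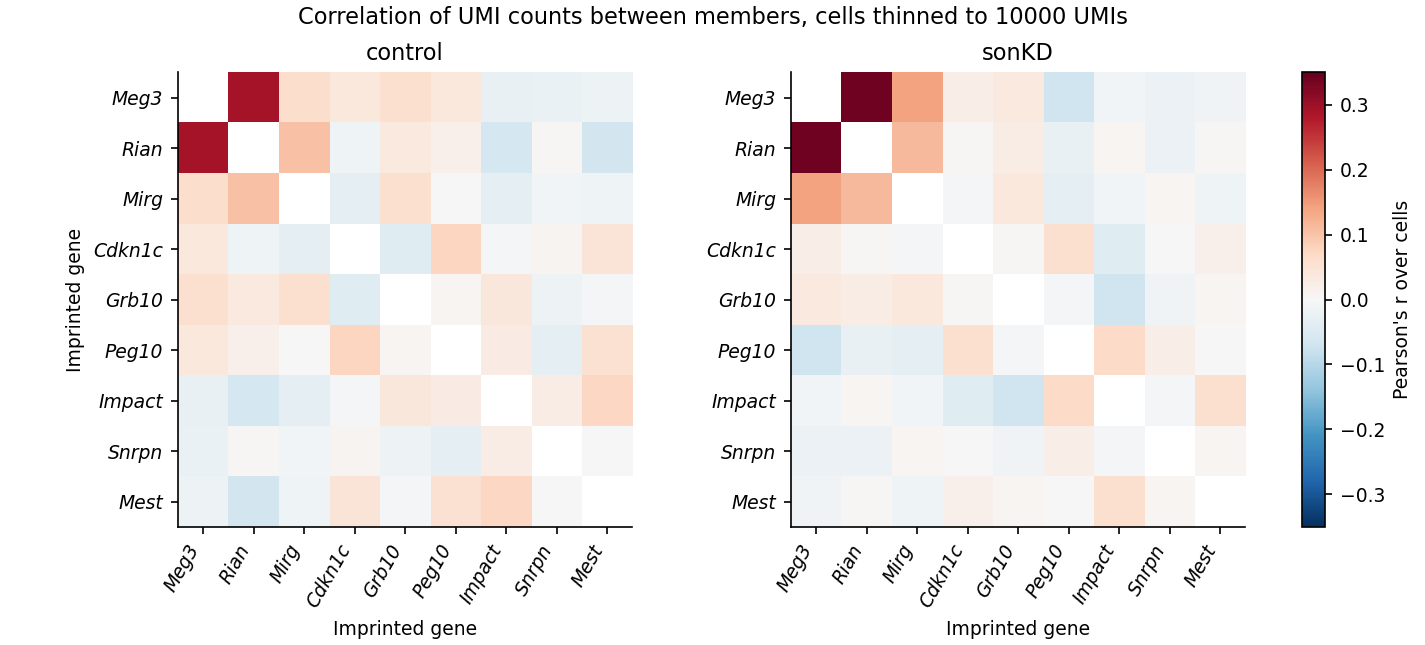
Pearson's r of UMI counts over cells thinned to 10000 UMIs for each pair of the 9 detected members, in control and sonKD, on a colour scale centred on 0. The Meg3 and Rian square is the darkest in both libraries, at 0.29 and 0.34, and pairs outside chromosome 12 lie between -0.07 and 0.07.

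Among all 5752 genes that averaged 0.05 thinned UMI or more in both libraries, Rian was the gene most like Meg3 and Meg3 the gene most like Rian, with a mean r of 0.16 over the libraries at 2500 UMIs. The next for Meg3 were B830012L14Rik (0.09) and Prrc2c (0.08), and for Rian they were Lgr4 (0.07) and B830012L14Rik (0.07). The other members had weaker partners. The 3 genes nearest to Peg10 were Sfn (0.13), S100a6 (0.11) and Atrx (0.10). Car2, Lgals1 and H2afz were nearest to Cdkn1c (each 0.08), and Mki67, Kcnq1ot1 and Tdgf1 were nearest to Grb10 (0.07, 0.07 and 0.06). Impact was nearest to Mt1, Apoe and Ftl1-ps1 (0.06 to 0.07), Snrpn to Calca, 1190005I06Rik and Mrps26 (each 0.05), and Mest to Pelo, Selenoh and Ppfibp2 (0.04 to 0.05). Correlations of this size in sparse counts are listed as a description. Lncenc1, a noncoding RNA of embryonic stem cells, was set beside Cdkn1c after its values were seen. A Cdkn1c UMI was found in 17.5% of Lncenc1-positive and 9.91% of Lncenc1-negative control cells, and in 12.2% and 7.79% of sonKD cells, where the interval of the difference included 0.

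The other RNA of cells with and without a Meg3 UMI was compared at 2500 UMIs. The ribosomal protein share was 18.7% with Meg3 and 19.7% without it in control, and 22.0% and 22.8% in sonKD. Malat1, a nuclear noncoding RNA, stood at 2945 CPM against 2547 CPM in control and at 2545 against 2335 CPM in sonKD. The pluripotency markers summed to 8000 CPM against 8270 CPM in control and 8790 against 9003 CPM in sonKD. The fibroblast list, most of it Fn1, summed to 195 CPM with Meg3 and 187 CPM without it in control, and to 181 and 147 CPM in sonKD. By Rian it summed to 225 and 184 CPM in control and to 186 and 154 CPM in sonKD. Median mitochondrial shares were 3.68% and 3.64% in control and 4.03% and 4.13% in sonKD. Rian-positive cells leaned the same way, with Malat1 at 3038 CPM against 2627 CPM in control and 3028 against 2326 CPM in sonKD. The lean was not particular to the chromosome 12 RNAs. By Peg10, Malat1 stood at 3765 against 2610 CPM in control and at 3016 against 2363 CPM in sonKD. In both libraries it was also higher in cells positive for Mirg, Grb10, Impact and Mest, and lower in those positive for Cdkn1c and Snrpn. The part of nuclear RNA content or of other cell types in the shared detection of the chromosome 12 RNAs was not tested.

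Other imprinted genes were read from lists of 24 genes known as maternally and 28 known as paternally expressed. Whether each was expressed from 1 parental copy in these cells was not measured. Of the maternal list 11 genes averaged 10 CPM or more, of which 0 were called higher and 1 lower in sonKD, with a median log2 ratio of -0.16. The gene called lower was Tssc4, at 26.4 and 20.6 CPM (log2 ratio -0.36). Commd1, the gene with the next largest ratio, was higher in sonKD at 163 CPM against 130 CPM (0.32), which is just under the rule. Its ratio was 0.41 with TMM factors and 0.44 with median ratio factors. The most abundant of the list were the tetraspanin Cd81 (358 and 315 CPM), the placental growth restrainer Phlda2 (201 and 175 CPM), Nap1l4 (145 and 137 CPM) and the ubiquitin ligase Ube3a (116 and 107 CPM). Of the paternal list 26 genes were counted, 8 averaged 10 CPM or more, and 0 were called in either direction, with a median of -0.17. Its most abundant genes were Jade1 (238 and 205 CPM), the noncoding Kcnq1ot1 (182 and 168 CPM), Zdbf2 (171 and 157 CPM), the amino acid transporter gene Slc38a4 (75.2 and 62.2 CPM) and Mcts2 (53.5 and 50.1 CPM). The neighbours of Meg3 that come from the paternal copy were scarce: Dlk1 stood at 0.391 and 0.406 CPM, Rtl1 at 1.08 and 0.718 CPM and Dio3 at 0.220 and 0.125 CPM.

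Factors that keep imprints were read from a list of 8 genes. Of the 7 such genes that averaged 10 CPM or more, 0 were called higher and 3 lower, against 10.2% lower over all genes. Uhrf1, which brings the maintenance methyltransferase to replicated DNA, came to 159 CPM against 105 CPM (log2 ratio -0.59; -0.65 to -0.53). Dnmt1, that methyltransferase, stood at 185 and 131 CPM (-0.50; -0.55 to -0.45), and Setdb1, a histone H3 lysine methyltransferase recruited by Trim28, at 94.3 and 72.1 CPM (-0.39; -0.46 to -0.31). Setdb1 came to -0.27 with median ratio factors, short of the rule, as did Tssc4 at -0.24, while Dnmt1 and Uhrf1 stayed past it at -0.38 and -0.48. Zfp57 (154 and 127 CPM), Trim28 (347 and 289 CPM) and Ctcf (255 and 223 CPM) had ratios between -0.28 and -0.20, and Zfp445 stood at 33.9 and 33.1 CPM (-0.03). Dppa3 was near the limit of detection at 1.32 and 1.34 CPM. The members themselves ranged from -0.31 to 0.08, and DNA methylation was not measured.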

How the data were processed

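The authors deposited raw UMI counts per gene and barcode for 1 control and 1 sonKD library, made with Cell Ranger 7.1.0 on mm10, per the file headers and the submitters' processing notes. The annotation used, and whether intronic reads were counted, are not given in the sources used here, and positions are from GENCODE M21 on GRCm38. All barcodes were in the files (71046373 UMIs in control, 60352438 in sonKD). The labels name 2 NextSeq models, so the instrument is not stated. Nothing says that cells came from separate cultures within a group.

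Counts were summed over kept cells and scaled to CPM with exact Poisson intervals. Shares have Clopper-Pearson intervals and ratios exact conditional binomial intervals, all at 95%. The interval of a difference of shares combines both bounds. Cells were thinned without replacement to 2500 UMIs (seed 11), or to 5000 or 10000 with shallower cells left out. The depth of 10000 and the values without a gene's top cell were added after seeing the data. A log2 ratio was called at 0.32 or more from 0 with its whole interval on that side, for genes that averaged 10 CPM. Excess variance was called at 1.5 for genes that averaged 0.05 thinned UMI. The models of zeros used full counts with depth as an offset. Doublets were kept and no caller was run, and an alternative removed the deepest 198 control and 60 sonKD barcodes, at 0.8% per 1000 cells. The scripts were checked on simulated counts.

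Named genes are all 10 members, the 5 most abundant of each other imprinted list, the 2 with ratios farthest from 0, the maintenance factors, and for each member of sufficient mean the 3 genes with the highest mean r. Members and lists were chosen with earlier results of these data known. Others named are said to be chosen after their values were seen, which holds for Igf2, Dlk1, Rtl1, Dio3, Snurf and Malat1. Python 3.11.15, numpy 2.4.6, scipy 1.17.1 and pandas 2.3.3 were used.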

Additional observations from a re-analysis of the deposited data

How the results depend on the processing

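The count of members called lower in sonKD went from 0 to 1 (Cdkn1c) with cells of at least 5000 UMIs and with the deepest barcodes removed, and stayed at 0 under the other alternatives run. The count called higher was 0 in all of them. Members with excess variance in control (0) became 3 at 5000 UMIs, 4 at 10000, 4 without thinning and 3 at a lower threshold. In sonKD (1) they became 3, 4, 5 and 3 in the same order. In control and sonKD, the share of all genes called was then 8.91% and 12.4% without thinning and 3.33% and 3.44% at the lower threshold. The sonKD count became 0 at a threshold of 2 or with at most 5% mitochondrial UMIs. Members positive in at least 10% of cells in control (5) became 8 at 5000 UMIs, 9 at 10000, 8 without thinning and 0 when 2 UMIs were required. In sonKD (4) they became 8, 8, 9 and 1, and 3 (without Rian) under another seed. More UMIs per cell raise both counts by construction. The Rian share difference by Meg3 in control became 11.8 percentage points at 5000 UMIs, 21.1 at 10000 and 22.6 without thinning. In sonKD it became 19.8 at 10000, 25.2 without thinning and 6.03 under another seed, and it was above 0 in every alternative run. The log2 ratio of Nap1l4 (-0.08) turned to 0.0090 with TMM factors and 0.035 with median ratio factors, and that of Kcnq1ot1 (-0.11) to 0.0056 with median ratio factors. No paired analysis was possible because each group held 1 sample. For the same reason no replicate could be left out. A gene near 25 CPM gave 0.06 UMI per cell at 2500 UMIs, which limits what can be read of its spread.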

Other observations

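Barcodes that passed the UMI and gene minimums but held more than 10% mitochondrial UMIs were outside every comparison above, and the imprinted genes stood at other levels in them. Meg3 was at 335 CPM in the 625 control barcodes and 285 CPM in the 1056 sonKD barcodes, log2 ratios of 0.76 (0.64 to 0.87) and 0.57 (0.47 to 0.66) over the kept cells of the same library. Rian was higher by 0.83 and 0.68 and Mirg by 1.05 and 0.70, each with its interval above 0. Cdkn1c was lower, at -0.76 and -1.11, and Snrpn at -1.01 and -0.40, each with its interval below 0. The median over all genes that averaged 10 CPM or more was 0.15 in control and 0.11 in sonKD. Grb10 (0.14 and 0.18), Impact (0.19 and -0.04) and Mest (0.24 and 0.20) stood near it, and Peg10 was at 0.36 and -0.26 with intervals that included 0. The 3 chromosome 12 RNAs were thus higher in these barcodes than in cells of both libraries, and Snrpn and Cdkn1c lower. Of the same genes, 11.4% in control and 15.5% in sonKD had a higher ratio than Meg3. For Rian these shares were 8.42% and 10.6%, and for Mirg 2.63% and 9.66%. At the other end, 92.2% and 98.8% had a higher ratio than Cdkn1c, and 96.8% and 82.2% a higher one than Snrpn. The cause was not tested.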
